A study of Mus musculus with 24 samples.

Results

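The Pax genes encode transcription factors that share the paired DNA-binding domain, and the rows named Pax1 to Pax9 in the deposited table of normalized counts were taken as the family, 9 of 49705 gene entries. RNA was measured in 24 libraries of optic vesicle (OV) organoids, free-floating aggregates of mouse embryonic stem cells (mESCs) that form a retina-like epithelium over several days in culture. There were 8 groups of 3 libraries: live cells not split by GFP on days 0, 1, 2 and 3, and on days 4 and 5 cells inside (GFP-positive) and outside (GFP-negative) a GFP gate, all collected with a flow sorter. All groups came from 1 mESC line, Rx-GFP K/I EB5, in which GFP is knocked in at Rax and reports expression of this eye field gene. No other treatment was applied, and each sample pooled 24 organoids started from 4500 cells each, with Matrigel at 2% from day 1. The labels name GMEM medium with 1.5% knockout serum replacement (KOSR), whereas the study's methods name a chemically defined medium for the initial organoids, and which applies to these samples was not settled. The gates were set wide, so that the GFP-negative samples also held cells with a low GFP signal, and the day 3 samples held all live cells, including a small share with GFP.

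Pax proteins bind DNA through the paired domain and, in some members, also through a homeodomain, and the vertebrate members fall into groups that go back to shared ancestral genes: Pax1 and Pax9, Pax2, Pax5 and Pax8, Pax3 and Pax7, and Pax4 and Pax6. Pax6 is one of the transcription factors that define the eye field (EF), and Pax2 marks the optic stalk and ventral optic vesicle and, with Pax5 and Pax8, the boundary between midbrain and hindbrain. Pax3 and Pax7 mark the dorsal neural tube, neural crest and somites, Pax1 and Pax9 the sclerotome and pharyngeal pouches, and Pax4 the endocrine pancreas.

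Library totals lay between 39849111 and 51587535 normalized counts, and 1 read was worth an estimated 0.798 to 1.39 normalized counts, so that the members at values below about 10 rested on few reads. Day 0 replicate 1 stood apart from its group: rank correlations between replicates were 0.979 to 0.993 in the 22 pairs without it and fell to 0.953 with it. The sorted samples followed their labels. Rax was at 9559 ± 436 normalized counts (SD, n = 3) in the day 4 GFP-positive samples and at 975 ± 38.4 in the GFP-negative samples, and at 8608 ± 463 and 447 ± 60.6 on day 5, and Lhx2, another EF gene, was at 15995 ± 762 and 2577 ± 384 on day 4. The 12 pluripotency genes summed to 41756 to 53148 normalized counts on day 3 and to 8372 to 9858 in the day 5 GFP-negative samples, against 720 to 943 in the GFP-positive samples, so genes of undifferentiated cells were still measured outside the gate.

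RefSeq start sites of GRCm38.p6, the build of the deposited coordinates (mm10), were found for 7 of the 9 members. The 250 bases before a start site are shown for Pax6, Pax2, Pax5 and Pax8, because these are the eye and midbrain members whose levels the results below turn on and because the windows printed, 1 for each gene, lie upstream of every annotated exon of the gene. They are printed 5′ to 3′ on the strand of the gene, with CG dinucleotides in capitals. The Pax6 window, chr2:105668646-105668895 on the plus strand, also lies within the antisense gene Pax6os1. The Pax2 window is chr19:44755502-44755751 on the plus strand, and the Pax5 window is chr4:44710695-44710944 on the minus strand. The Pax8 window, chr2:24475600-24475849 on the minus strand, lies within the annotated gene Gm13415.
Pax6: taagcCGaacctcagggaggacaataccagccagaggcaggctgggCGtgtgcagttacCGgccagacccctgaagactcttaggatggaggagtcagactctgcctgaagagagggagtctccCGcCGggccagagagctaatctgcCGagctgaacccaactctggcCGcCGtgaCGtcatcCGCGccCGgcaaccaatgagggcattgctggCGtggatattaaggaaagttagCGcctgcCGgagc
Pax2: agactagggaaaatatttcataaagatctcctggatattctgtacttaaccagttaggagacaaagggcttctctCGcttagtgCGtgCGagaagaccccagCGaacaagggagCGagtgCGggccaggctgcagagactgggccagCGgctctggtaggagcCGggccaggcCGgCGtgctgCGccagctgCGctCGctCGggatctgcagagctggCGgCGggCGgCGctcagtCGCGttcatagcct
Pax5: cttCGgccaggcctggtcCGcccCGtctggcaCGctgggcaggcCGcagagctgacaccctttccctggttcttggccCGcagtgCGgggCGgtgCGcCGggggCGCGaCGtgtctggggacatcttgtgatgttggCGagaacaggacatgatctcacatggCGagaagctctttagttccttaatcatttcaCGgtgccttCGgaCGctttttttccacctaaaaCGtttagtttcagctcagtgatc
Pax8: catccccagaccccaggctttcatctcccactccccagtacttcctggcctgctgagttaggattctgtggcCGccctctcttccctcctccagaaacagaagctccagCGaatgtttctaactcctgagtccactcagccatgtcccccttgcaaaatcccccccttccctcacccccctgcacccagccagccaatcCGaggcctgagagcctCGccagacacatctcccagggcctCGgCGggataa

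Pax2 has a further listed start site with a window upstream of the gene, chr19:44746351-44746600, which held 5 CG dinucleotides and is not printed. The printed windows of Pax2, Pax5 and Pax6 held 20, 19 and 15 CG dinucleotides, and that of Pax8 held 6, the same as the median of 6 over all 32851 windows of this length. Fewer CG dinucleotides were found in 82.1% of all windows for the printed and in 44.4% for the further Pax2 window, in 80.3% for Pax5, in 72.7% for Pax6 and in 49.6% for Pax8. The homeodomain core TAATTA, the palindromic dimer site of paired-class homeodomains (2 inverted TAAT cores 3 bases apart) and the E-box CACGTG, each the same on both strands, were absent from the 10 windows of the 7 members, and were present in 4.84%, 0.463% and 6.02% of all windows. The paired-domain core GTCACGC, searched on both strands, was found in 1.78% of all windows and, within the family, in that of Pax1 alone. The Pax1 window lies in an intron of the annotated gene, not upstream of it.

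**Figure D1:**
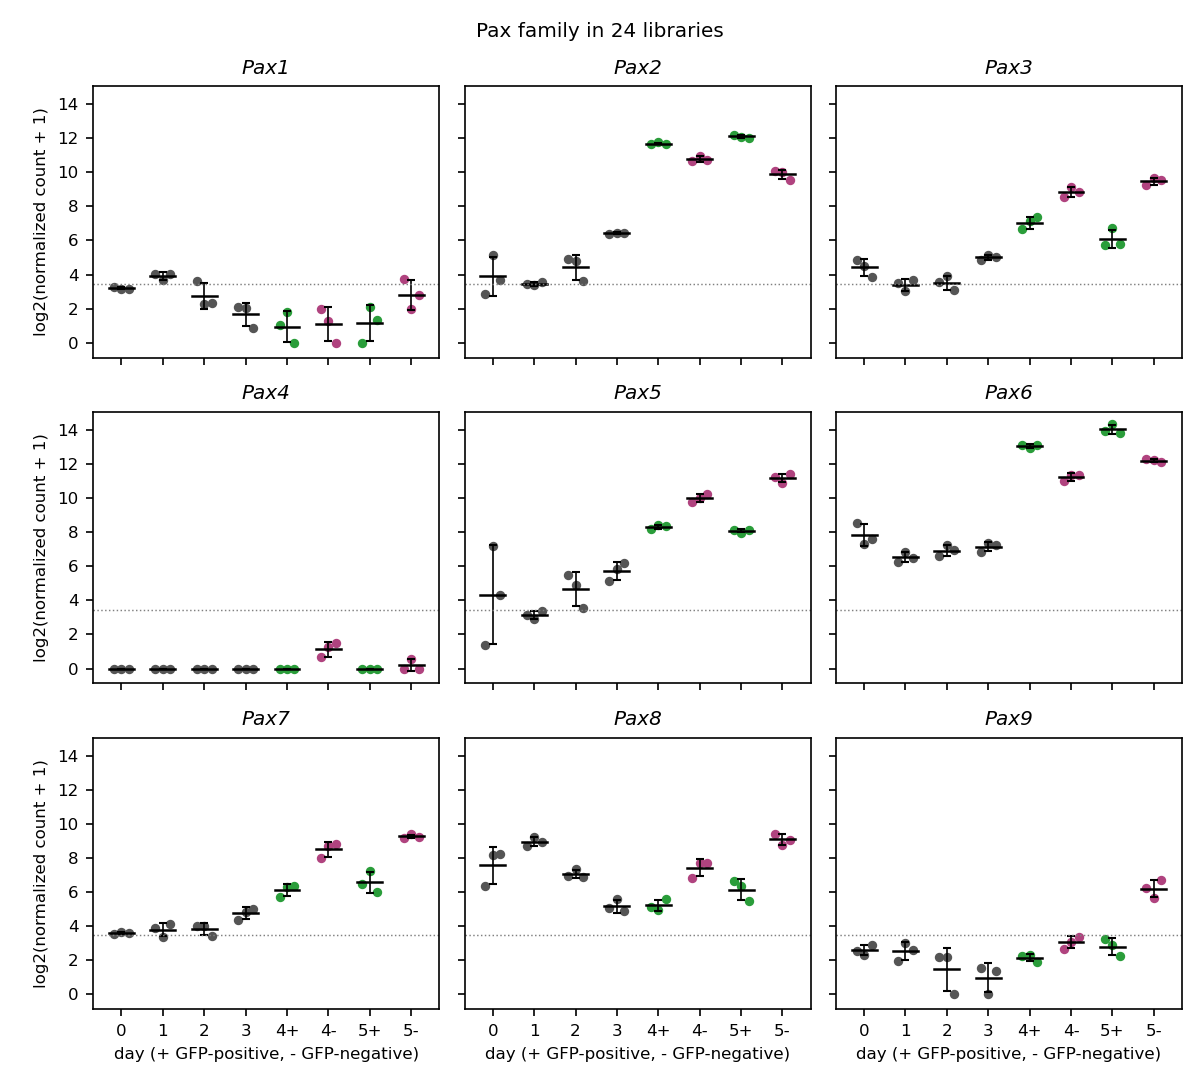
Each panel shows 1 Pax gene, with log2(normalized count + 1) on the vertical axis and the 8 groups on the horizontal axis (grey, live cells not split by GFP; green, GFP-positive; magenta, GFP-negative); points are libraries, bars are the mean and SD of 3, and the dotted line marks 10 normalized counts. Pax2 and Pax6 lay highest in the GFP-positive samples, Pax3, Pax5, Pax7, Pax8 and Pax9 highest on average in the day 5 GFP-negative samples, and Pax1 and Pax4 stayed low.

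Pax6, the EF member, stayed low until day 3, rose in both gates on day 4 and was higher in the GFP-positive samples on both days. It lay between 74.2 and 367 normalized counts in the 9 libraries of days 0 to 2 and at 114, 162 and 150.4 on day 3. On day 4 it was at 8939, 7774 and 8838 in the GFP-positive samples and at 2029, 2610 and 2627 in the GFP-negative samples. On day 5 it was at 15803, 20619 and 14217 in the GFP-positive samples and at 4949, 4713 and 4385 in the GFP-negative samples. No library of either gate on either day overlapped with day 3 or with the other gate of its day. In the fit of all genes with limma and Benjamini-Hochberg adjustment, the log2-fold-change from day 3 was 5.91 ± 0.24 (SE) in the day 4 GFP-positive samples (adjusted p = 9.29e-14) and 4.09 ± 0.24 in the GFP-negative samples (adjusted p = 2.02e-10). The GFP-positive samples exceeded the GFP-negative samples by 1.82 ± 0.24 on the log2 scale on day 4 (limma adjusted p = 9.59e-06) and by 1.83 ± 0.24 on day 5 (limma adjusted p = 7.64e-06). The change of this difference between the days was 0.01, with a 95% interval from -0.70 to 0.72. Pax6 was higher on day 5 than on day 4 without overlap in both gates, by 0.97 for GFP-positive and by 0.96 for GFP-negative samples, and both values were below the fold-change threshold of 1.5 (limma adjusted p = 0.0104 and 0.0121).

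Pax2, the optic stalk and midbrain boundary member, was the member called higher on day 3 than on day 0, and the gap between its gates on day 5 was called where that on day 4 was not. It lay between 6.31 and 34.3 normalized counts on days 0 to 2 and at 80.7, 86.8 and 85.7 on day 3, above every earlier library. The day 3 level exceeded day 0 by 2.51 ± 0.37 on the log2 scale (limma with Benjamini-Hochberg adjustment, adjusted p = 1.26e-05), and exceeded day 2 by 1.98, just outside the threshold on p (adjusted p = 0.00108). The latter was called by limma with a pseudocount of 5 (adjusted p = 0.000436) or a filter of 50 normalized counts (0.000951). It was also called without day 0 replicate 1 (5.73e-05) or with the day 0 group left out (5.4e-06). With any 1 of the 6 libraries of days 2 and 3 left out, it was not called (limma adjusted p = 0.00166 to 0.0107). On day 4 Pax2 was at 3163, 3426 and 3275 in the GFP-positive samples and at 1628, 2007 and 1684 in the GFP-negative samples. Both gates lay far above day 3, by 5.27 ± 0.37 (limma adjusted p = 3.28e-10) and 4.37 ± 0.37 (limma adjusted p = 4.03e-08). The gates did not overlap, but their difference of 0.90 (95% interval 0.12 to 1.67) was not called (limma adjusted p = 0.122). On day 5 the GFP-positive samples were at 4613, 4363 and 4160 and the GFP-negative samples at 1055, 1039 and 739, a difference of 2.23 ± 0.37 (limma adjusted p = 0.000142). The call depended on single libraries: without day 5 GFP-negative replicate 3 the difference was 2.06 (adjusted p = 0.00156) and without day 5 GFP-positive replicate 1 it was 2.19 (adjusted p = 0.00107). The change of the gate difference from day 4 to day 5 was 1.33 with a 95% interval from 0.23 to 2.43 and was not called (limma adjusted p = 0.359).

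The level in the GFP-negative samples can be given as a share of that in the GFP-positive samples, with Rax, the gene whose reporter set the gate, for reference only, since its share follows from the sort. In the GFP-negative samples the mean Pax6 was 28.4% of that in the GFP-positive samples on day 4 and 27.7% on day 5, and Rax was at 10.2% and 5.20%. Over the 9 pairs of a GFP-negative with a GFP-positive library, the Pax6 share ranged from 22.7% to 33.8% on day 4 and from 21.3% to 34.8% on day 5, and the Rax share from 9.49% to 11.2% and from 4.62% to 6.41%. For Pax2 the share was 53.9% on day 4 and 21.6% on day 5. Of the other EF genes, Lhx2 was at 16.1% and 12.9%, Six3 at 29.8% and 16.2% and Six6 at 18.7% and 3.21%. In bulk samples, fewer cells that express a gene and less RNA per cell cannot be told apart, and the part of cells with low GFP in these shares was not tested.

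Pax6os1, the antisense gene at the Pax6 start site, was listed at 0 in all libraries until day 3 and averaged 6.72 normalized counts in the day 4 and 61.6 in the day 5 GFP-positive samples, against 0.822 and 5.06 in the GFP-negative samples. Whether counting used the strand is not given in the sources used here, so reads of Pax6 and Pax6os1 may not be told apart.

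Pax5, which is known from the midbrain boundary and from B cells, was higher in the GFP-negative samples. It was at 34.1, 57.0 and 72.0 normalized counts on day 3, and on day 4 at 885, 1008 and 1222 in the GFP-negative and at 290.1, 340 and 322 in the GFP-positive samples. On day 5 the GFP-negative samples reached 2376, 1902 and 2692, and the GFP-positive samples stayed at 277, 250.1 and 276. The GFP-negative samples lay above the GFP-positive samples on both days without overlap, with means 3.27 times as high on day 4 and 8.67 times as high on day 5. The rise from day 3 to the day 4 GFP-negative samples was called, at 4.28 ± 0.81 on the log2 scale (limma with Benjamini-Hochberg adjustment, adjusted p = 0.00065), but was not called with any single library of these groups left out (adjusted p = 0.00195 to 0.00512), with a pseudocount of 0.5 (0.00103) or without the mean-variance trend (0.00159). In the day 4 GFP-positive samples Pax5 also lay above day 3 without overlap, by 2.58 ± 0.81, which was not called (limma adjusted p = 0.0153) but was called without day 0 replicate 1 (adjusted p = 0.000216) and in a fit of only these groups (adjusted p = 0.000196). The differences between the gates, -1.70 on day 4 and -3.10 on day 5, were not called (limma adjusted p = 0.192 and 0.0098). All groups share 1 SE in the fit, and for Pax5 the widest spread was on day 0, where the 3 libraries held 1.64, 147 and 19.2 normalized counts. With the day 0 group left out of the fit, an alternative chosen after the data had been seen, both gate differences were called (adjusted p = 0.000987 and 1.00e-06), and without day 0 replicate 1 alone that of day 5 was called (adjusted p = 7.28e-05).

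Pax8 acts with Pax2 and Pax5 at the midbrain boundary and is also known from thyroid and kidney. It was high at the start and again in the GFP-negative samples. It was at 79.5, 290.2 and 295 normalized counts on day 0, at 410, 594 and 488 on day 1 and at 123, 159 and 118 on day 2. On day 3 it was at 31.9, 46.5 and 28.1, below every earlier library, with a log2-fold-change of -2.42 ± 0.40 from day 0 (limma with Benjamini-Hochberg adjustment, adjusted p = 4.37e-05). On day 4 the GFP-negative samples were at 114, 207 and 209 and the GFP-positive samples at 33.3, 30.1 and 46.3, which overlapped with day 3. On day 5 the GFP-negative samples were at 687, 439 and 534 and the GFP-positive samples at 97.4, 81.3 and 42.8. The gate differences were -2.21 ± 0.40 on day 4 (limma adjusted p = 0.000363) and -2.94 ± 0.40 on day 5 (limma adjusted p = 1.15e-05). The day 4 call was lost without any one of 4 libraries, GFP-negative replicates 2 and 3 and GFP-positive replicates 1 and 2 (adjusted p = 0.00325, 0.00315, 0.00248 and 0.00293). The rise of 2.26 ± 0.40 from day 3 to the day 4 GFP-negative samples was called (adjusted p = 0.00032) and was lost without day 3 replicates 1 or 3 or GFP-negative replicates 2 or 3 (adjusted p = 0.00215 to 0.003) and in the fit of only the groups compared (adjusted p = 0.00308). In the GFP-negative samples Pax8 lay higher on day 5 than on day 4 without overlap, by 1.67 on the log2 scale, a difference that was not called (limma adjusted p = 0.00879). The 12 pluripotency genes summed to 16385 to 19384 normalized counts in these samples on day 4 and to 8372 to 9858 on day 5, and the part of undifferentiated cells in the Pax8 level was not tested.

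Pax3 and Pax7, the dorsal neural tube and neural crest members, were higher in the GFP-negative than in the GFP-positive samples on both days. Pax3 was at 27.6, 34.5 and 32.0 normalized counts on day 3, and on day 4 at 377, 554 and 465 in the GFP-negative and at 101, 137 and 162 in the GFP-positive samples. On day 5 it was at 603, 805 and 739 in the GFP-negative and at 53.1, 104 and 53.9 in the GFP-positive samples. The gates did not overlap on either day, and the gate difference was -1.80 ± 0.30 on the log2 scale on day 4 (limma with Benjamini-Hochberg adjustment, adjusted p = 0.000176) and -3.39 ± 0.30 on day 5 (limma adjusted p = 4.38e-08). The day 4 call was lost without GFP-negative replicate 2 or 3 or GFP-positive replicate 1 (adjusted p = 0.00205, 0.0011 and 0.00221). From day 3, Pax3 rose by 3.84 ± 0.30 in the GFP-negative samples (limma adjusted p = 1.48e-08) and by 2.03 ± 0.30 in the GFP-positive samples (limma adjusted p = 1.51e-05), so that it rose in both gates of day 4. Between the GFP-positive samples of day 4 and day 5, the difference was -0.96 for Pax3 and 0.44 for Pax7, neither of which was called (limma adjusted p = 0.0503 and 0.498). The change of the gate difference between the days, -1.59 with a 95% interval from -2.48 to -0.69, was not called (limma adjusted p = 0.0843).

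Pax7 was at 19.4, 27.8 and 31.6 normalized counts on day 3, and on day 4 at 259, 412 and 441 in the GFP-negative and at 52.1, 77.3 and 81.3 in the GFP-positive samples. On day 5 it was at 578, 665 and 605 in the GFP-negative and at 88.3, 148 and 62.9 in the GFP-positive samples. The gates again did not overlap, with differences of -2.37 ± 0.31 on day 4 (limma adjusted p = 6.87e-06) and -2.70 ± 0.31 on day 5 (limma adjusted p = 1.06e-06). Pax7 rose by 3.76 ± 0.31 from day 3 to the day 4 GFP-negative samples (limma adjusted p = 1.99e-08). In the day 4 GFP-positive samples it lay above day 3 by 1.39 ± 0.31, below the fold-change threshold (limma adjusted p = 0.00101).

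Pax9, a sclerotome and pharyngeal member, was measured at 10 or more normalized counts only in the day 5 GFP-negative samples, at 74.99, 49.4 and 102. All 21 other libraries lay between 0 and 9.30. It passed the filter on low values through those 3 libraries, so it had to differ from the rest, and its fitted values are a description: -3.39 ± 0.54 between the gates on day 5 and 3.15 ± 0.54 between the GFP-negative samples of day 5 and day 4. Each of the 6 libraries of the latter comparison, when left out, took its adjusted p to between 0.0012 and 0.00509, past the threshold.

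Pax1, the other sclerotome member, never exceeded 15.6 normalized counts. It was highest on day 1, at 15.3, 11.6 and 15.6, lay between 0 and 3.24 in the day 4 samples and the day 5 GFP-positive samples, and was at 12.1, 2.89 and 5.92 in the day 5 GFP-negative samples, and no difference was called in any comparison. Pax4, the endocrine pancreas member, did not pass the filter and was not tested. It was listed at 0 in 20 of the 24 libraries, at 0.574, 1.37 and 1.79 in the day 4 GFP-negative samples and at 0.5004 in day 5 GFP-negative replicate 2.

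A difference was called where its size exceeded 1.5 on the log2 scale and its adjusted p was below 0.001, and 8 of the 9 members were tested among 21005 genes. The comparisons share groups, above all day 3 and the 4 sorted groups, and are therefore not independent. Day 3 was not split by GFP and day 4 was, so that the GFP gate and the passing of a day cannot be told apart in the comparisons between them. From day 2 to day 3, 0 of 8 members were called, against 1% of all genes tested. In the limma fit, 4 members, Pax2, Pax3, Pax7 and Pax8, had an unadjusted p under 0.05. The share of all genes under that looser limit was not computed, so these 4 cannot be set against the 1%. Without day 0 replicate 1, Pax2 was called higher and Pax8, at -1.90, lower (limma adjusted p = 5.73e-05 and 7.57e-05). Neither was called with any single library of day 2 or day 3 left out. From day 0 to day 3, 2 members were called, Pax2 higher and Pax8 lower, against 12% of all genes. Without day 0 replicate 1, Pax2 stood at 1.99 and Pax8 at -3.04 on the log2 scale, and both were still called (limma adjusted p = 3.72e-05 and 1.26e-07). Neither was called in a fit of the groups of days 0 and 3 alone (adjusted p = 0.0182 and 0.0175). Between day 3 and the day 4 GFP-positive samples 3 members rose, Pax2, Pax3 and Pax6, where 10.7% of all genes were called in either direction and 3.33% were called higher. Between day 3 and the day 4 GFP-negative samples 6 members rose, Pax2, Pax3, Pax5, Pax6, Pax7 and Pax8, where 2.88% of all genes were called in either direction and 2% were called higher. Pax8 was not called in a fit of only these groups. The median log2-fold-change of the 8 members was 1.71 in the former comparison and 3.796 in the latter, and that of all genes was -0.01 and -0.02.

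Between the gates on day 4, 4 members were called, Pax6 higher and Pax3, Pax7 and Pax8 lower in the GFP-positive samples, against 3.96% of all genes. On day 5, 5 of the 7 tested members other than Pax9 were called, Pax2 and Pax6 higher and Pax3, Pax7 and Pax8 lower, against 5.01% of all genes. Pax9 also passed the thresholds but is not counted, since the filter admitted it through the day 5 GFP-negative samples. In fits of only the 2 gates compared, which estimate the spread from fewer libraries, Pax3, Pax7 and Pax8 were not called on day 4 (adjusted p = 0.00201, 0.00148 and 0.00313) nor Pax7 and Pax8 on day 5 (adjusted p = 0.00117 and 0.00124), whereas Pax5 was called on both days. After quantile normalization, Pax3 and Pax8 were not called on day 4 (adjusted p = 0.0012 and 0.00299). Most calls over all genes were towards the GFP-negative samples, with 69 genes higher and 763 lower on day 4 and 84 higher and 968 lower on day 5. Between day 4 and day 5, 0 of 8 members were called in the GFP-positive samples, against 1.49% of all genes, with Pax3, Pax6 and Pax8 at an unadjusted p under 0.05, and in the GFP-negative samples 0 of the 7 members other than Pax9, against 1.27%, with Pax1, Pax2, Pax6, Pax7 and Pax8 at an unadjusted p under 0.05. Pax9 passed the thresholds in the GFP-negative samples and is again not counted. With day 0 replicate 1 or the whole day 0 group left out, Pax8 was called there as higher on day 5 (limma adjusted p = 0.000343 and 0.000544). For the change of the gate difference between the days, 0 of 8 members were called, against 0.109% of all genes. Pax2 and Pax3, besides Pax9, had an unadjusted p under 0.05. The share of all genes under that limit was not computed, here or between day 4 and day 5, so these names are a description.

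**Figure D2:**
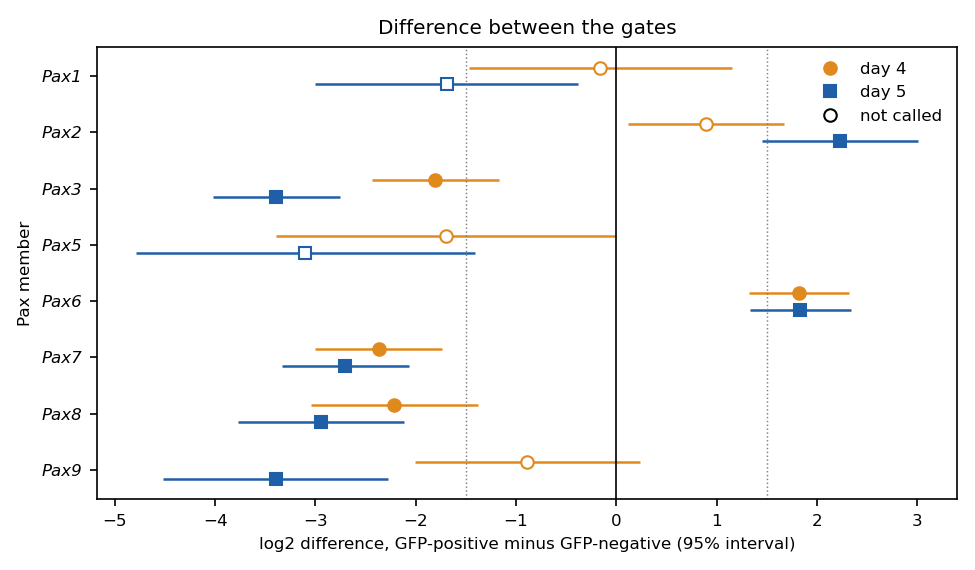
The horizontal axis gives the log2 difference between GFP-positive and GFP-negative samples for the 8 tested Pax genes, with 95% intervals from the fit of all genes, on day 4 (circles) and day 5 (squares); open symbols did not pass the thresholds, Pax9 is a description, and dotted lines mark the threshold of 1.5 in either direction. Pax6 sat at 1.82 and 1.83 and Pax2 at 0.90 and 2.23, and the other members lay below 0 on both days.

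The make-up of the family was compared per length, as normalized counts divided by the mean length of a gene's coding transcripts in kb. The summed level of the 9 members on this scale was 159.9 ± 26.5 on day 3 (SD, n = 3), 4613 ± 197 in the day 4 and 8149 ± 1311 in the day 5 GFP-positive samples, and 2542 ± 344 and 4403 ± 261 in the GFP-negative samples. Pax6 made up 70.5% ± 2.54 of the sum in the day 4 GFP-positive samples and 78.9% ± 2.85 on day 5, with Pax2 next at 23.1% ± 1.88 and 17.7% ± 2.54 and Pax5 at 4.52% ± 0.52 and 2.20% ± 0.45. In the GFP-negative samples the sum was spread over more members. Pax6 made up 36.4% ± 0.21 on day 4 and 40.7% ± 3.08 on day 5, Pax5 26.8% ± 2.44 and 34.5% ± 4.70, and Pax2 22.7% ± 2.57 and 6.97% ± 1.44. On day 0, Pax8 made up 48.8% ± 20.8 and had the largest mean share, but in day 0 replicate 1, the library that stood apart, Pax8 made up 26.1% and Pax6 64.9%.

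The shares, and the order of Pax6 and Pax2, depended on the length used. With the merged length of all annotated exons, 11694 bases for Pax6 and 5409 for Pax2, Pax2 came first on day 3, at 31.4% against 24.2%, and in the day 4 GFP-negative samples, at 40.03% against 25.2%. Pax6 came first under both lengths in the GFP-positive samples of both days and in the day 5 GFP-negative samples. On this scale Pax6 made up 51.5% and 61.7% in the GFP-positive samples of days 4 and 5, Pax2 43.1% and 35.2%, and Pax5 2.54% and 1.32%. In the GFP-negative samples Pax5 made up 14.3% and 22.5%, and Pax2 14.96% on day 5.

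**Figure D3:**
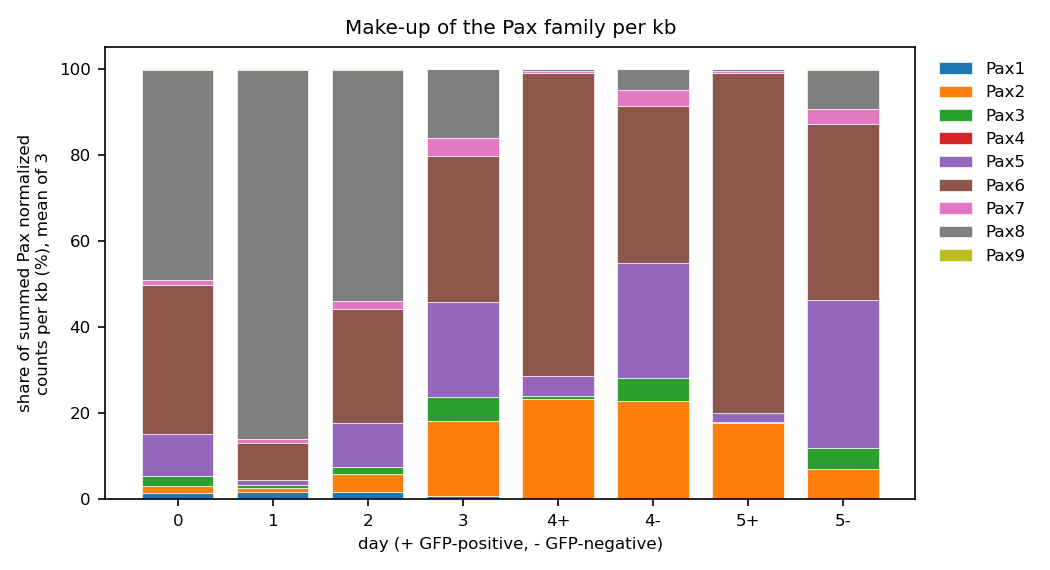
Stacked bars give the share of each Pax gene in the summed normalized counts per kb of the family (mean of 3 libraries, in %), by group, with lengths taken as the mean coding transcript. Pax8 filled most of the bar on days 1 and 2, and Pax6 70.5% and 78.9% of it in the GFP-positive samples of days 4 and 5.

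Genes known from the same embryonic territories as the members were followed in the same fit. Of 16 EF and optic vesicle genes, 5 were called higher in the GFP-positive samples on day 4 and 11 on day 5, with none lower and a median of 0.74 and 2.98 on the log2 scale. Of all genes tested, 0.328% were called higher in the GFP-positive samples on day 4 and 0.4% on day 5, and 3.63% and 4.61% were called lower, which are the shares against which the counts of the lists below between the gates also stand. The counts and medians of the EF and optic vesicle list include Rax, whose call was fixed by the sort, since the gate selects on it. The other calls of this list included Six6, a gene of the eye field and retina, at 2.51 and 4.97. Of the 12 genes of the sine oculis homeobox, Eya and Dach families, whose products act with Pax proteins in eye formation, 2 were called higher and 1 lower on day 4 and 3 and 1 on day 5, and the lower one, Six2, fell by 3.00 and 2.67. Six3 and Six6, which were 2 of the higher calls on each day, are also in the EF list.

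The midbrain and boundary genes, the territory of Pax2, Pax5 and Pax8, lay on the GFP-negative side. Of 12, 10 were called lower in the GFP-positive samples on day 4 and 9 on day 5, with none higher and a median of -3.21 and -3.05. En1, a midbrain gene, was at 1902 ± 405 normalized counts in the day 4 GFP-negative and 103 ± 37.4 in the GFP-positive samples, and at 3272 ± 466 and 306 ± 55.6 on day 5. Wnt1, which marks the midbrain side of the boundary, was at 629 ± 169 and 46.4 ± 22.3 on day 4 (-3.83 on the log2 scale), and Gbx2, which marks the hindbrain side, at 520.1 ± 73.8 and 27.3 ± 13.2 (-4.32). Pax5 and Pax8 lay on the same side as these genes, and Pax2 was called on the other side on day 5.

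The dorsal tube and neural crest genes, the territory of Pax3 and Pax7, were called lower in the GFP-positive samples for 7 of 13 on day 4 and 6 of 13 on day 5, with none higher and a median of -1.95 and -1.80. Foxd3, which is also a gene of pluripotent cells, differed by -3.98 and -3.85. Sox10, a neural crest gene, was at 441 ± 123 in the day 5 GFP-negative and 70.1 ± 16.2 in the GFP-positive samples (-2.62). Of 11 paraxial mesoderm genes, another territory of Pax3 and Pax7 and that of Pax1 and Pax9, 8 were tested, and 5 on day 4 and 3 on day 5 were called lower in the GFP-positive samples. The muscle gene Myf5 was at or near 0 in all sorted groups, with a highest value of 2.40, and with Meox2 and Nkx3-2 did not pass the filter.

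In further lists the calls between the gates were on the GFP-negative side. The otic and renal genes, a further territory of Pax2 and Pax8, were called lower in the GFP-positive samples for 5 of 10 on day 4 and 4 of 10 on day 5, and the endoderm and islet genes, the territory of Pax4, for 5 of 11 and 7 of 11. All 12 pluripotency genes were called lower in the GFP-positive samples on both days. Of 9 tested endothelial genes, 3 were called lower on day 4 and 5 on day 5, with Cdh5 at -4.38 on day 5, and their sum in the GFP-negative samples was 1787 to 2728 on day 4 and 2744 to 3480 on day 5, against 311 to 452 and 864 to 1047 in the GFP-positive samples. Pax9 passed 10 normalized counts between the GFP-negative samples of day 4 and day 5. Between these samples 4 of 9 endothelial and 1 of 11 endoderm genes were called higher. Of the 8 tested paraxial mesoderm genes, the territory of Pax9, 0 were called higher and 2 lower. In other lists, 2 of 16 EF and optic vesicle, 2 of 13 dorsal tube and neural crest and 1 of 12 sine oculis homeobox, Eya and Dach genes were called higher. In the EF and optic vesicle, the otic and renal and the pluripotency list, 1 gene each was called lower. Of all genes, 0.762% were called higher and 0.509% lower in this comparison. The part of these other cell types in the GFP-negative levels of Pax3, Pax5, Pax7, Pax8 and Pax9 was not tested. These lists were chosen with results of these data known and describe the samples in which the members were measured.

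**Figure D4:**
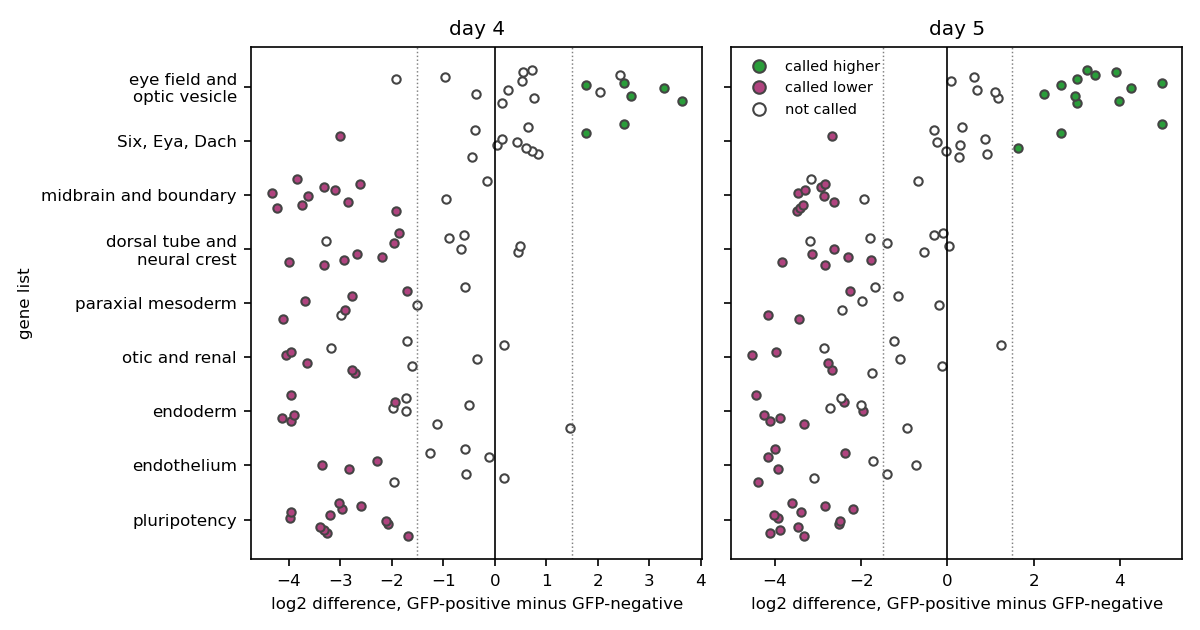
Points are the tested genes of 9 lists, placed by their log2 difference between GFP-positive and GFP-negative samples on day 4 (left) and day 5 (right); green points were called higher, magenta points called lower and open points not called, and dotted lines mark 1.5 in either direction. The EF and optic vesicle list, which includes Rax, the gene the gate selects on, had 5 and 11 genes called higher and none lower. The midbrain and boundary list had 10 and 9 called lower and none higher.

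Across the 24 libraries, the members were compared by the Pearson r of their profiles of log2(normalized count + 1), which is given as a description, since libraries of a group and of neighbouring days are not independent. Pax3 and Pax7 had a Pearson r of 0.97, and each was the other's closest match among 16051 genes. For Pax3 this rank was a near tie, with Pax7 and Bmp5 both at 0.9695. Pax2 and Pax6 reached 0.94, Pax5 and Pax7 0.93, and Pax3 and Pax5 0.92. Members called on opposite sides of the gate were also correlated, with 0.78 for Pax2 and Pax3, 0.79 for Pax2 and Pax7 and 0.75 for Pax6 with each of Pax3 and Pax7, and Pax5 had 0.85 with Pax2 and 0.76 with Pax6. Pax8 was not close to the other midbrain members, with 0.05 to Pax5 and -0.31 to Pax2. It had 0.62 with Pax9 and 0.59 with Pax1, which are members with few reads. Pax1 and Pax2 had the lowest value, -0.70. The genes closest to Pax6 were Edaradd (0.99), Tal2 and Pygo1 (both 0.98). Those closest to Pax2 were Ddx25 (0.99), Zfand3 (0.99) and Cdh20 (0.98), and those closest to Pax5 were Ror2 (0.96), Pcdh8 and Sobp (both 0.95). After Pax7, Pax3 was closest to Bmp5 (0.97) and Prrx1 (0.96), and after Pax3, Pax7 was closest to Prrx1 and Nkx6-1 (both 0.96). Pax8 was closest to Plpp3 (0.94), Peg10 (0.90) and Fn1 (0.88). The low members had weaker matches, Pax9 with Myot (0.89), Sim2 and Ctla2a (both 0.87), and Pax1 with Tspan1 (0.84), A930038B10Rik and Aldh3b2 (both 0.83).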

How the data were processed

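RNA from sorted live cells was sequenced from TruSeq libraries of polyA RNA. The authors quantified transcripts with kallisto, version 0.43.1 in the submitters' processing notes, and deposited, per gene, a normalized signal: estimated counts scaled with DESeq2 for mouse build mm10. The version of DESeq2, the use of strand and the handling of reads shared between paralogs are not given in the sources used here. Of low values, 45.6% to 76.9% per library were whole multiples of the estimated worth of 1 read (tolerance 0.1), so whole reads could not be restored and count models were not used; the estimated depth was 37100000 to 54500000 reads.

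Groups were taken from the labels. Values were transformed as log2(value + 1), a scale that understates changes of low genes, for genes that reached 10 in 3 or more libraries, and fitted with limma 3.58.1 in R 4.3.3 (eBayes with trend) with all 24 libraries, group means and no block. Benjamini-Hochberg adjustment was made over all genes of a contrast, with the study's thresholds. The procedure was tested on simulated data. P-values measure the spread between pooled samples of 1 line. Likeness was computed among genes with a group mean of at least 50. Named genes of a list are up to 4 called genes with the largest change; Myf5, Meox2 and Nkx3-2, which failed the filter, were named after their values were seen. Not every gene meeting this rule is reported here. Pax members and lists were chosen with earlier results of these data known. Lengths came from GENCODE M21, whose 9 Pax gene coordinates equal the deposited ones, and sequences from RefSeq (GRCm38.p6). Alternatives were a pseudocount of 0.5 or of 5, leaving the filter out or raising it to 50, quantile normalization, no trend, a replicate block, a looser threshold, only the groups compared, and leaving out each library; leaving out the day 0 group was added after the data had been seen. Figures used matplotlib 3.10.9 in Python 3.11.15. The authors' columns of their own calls were not used.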

Additional observations from a re-analysis of the deposited data

How the results depend on the processing

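Of the log2-fold-changes of the members, 1163 values under an alternative kept their direction and their side of the threshold, or were uncalled in both fits, 42 lost the call and 33 gained it, and no called value changed sign. In the following counts Pax9 is included where it passed the thresholds. The filter admitted Pax9 through the day 5 GFP-negative samples, so its calls, and their gain or loss, are not a test. Without Pax9 the main counts below are 5 between the gates on day 5 and 0 in the GFP-negative samples from day 4 to day 5. From day 2 to day 3 the number of members called was 0, and 1 with a pseudocount of 5 or a filter of 50, 2 with the day 0 group left out, 4 at an adjusted p under 0.05 with no fold threshold (14.4% of all genes), and 0 to 2 when a library was left out. From day 0 to day 3 it was 2, and 5 at the looser threshold (43.6% of all genes), 0 in the fit of only the groups compared and 2 to 3 when a library was left out. For the day 4 GFP-positive samples against day 3 it was 3, and 5 at the looser threshold (37.9%), 4 after quantile normalization (Pax7 added), 4 with only the groups compared or with the day 0 group left out (Pax5 added) and 3 to 4 when a library was left out. For the day 4 GFP-negative samples against day 3 it was 6, and 7 at the looser threshold (18.5%), 5 with a pseudocount of 0.5 or no trend (Pax5 lost) or with only the groups compared (Pax8 lost), and 4 to 6 when a library was left out. Between the gates on day 4 it was 4, and 2 after quantile normalization or in the fit of only the groups compared, 5 with the day 0 group left out, and 2 to 4 when a library was left out. On day 5 it was 6, and 5 with a filter of 50, 4 with only the groups compared, 7 at the looser threshold (16% of all genes) or with the day 0 group left out, and 5 to 7 when a library was left out. From day 4 to day 5 it was 0 in the GFP-positive samples, and 1 at the looser threshold (9.8%), and 1 in the GFP-negative samples, and 0 with a pseudocount of 0.5, no filter, a filter of 50, a replicate block or only the groups compared, 3 at the looser threshold (10.2%), 2 with the day 0 group left out and 0 to 2 when a library was left out. Fits of only the groups compared have fewer samples to estimate the spread. With a filter of 50, Pax9 was not tested, since day 5 GFP-negative replicate 2 was at 49.4. For the other changes the cause was not tested. The calls of Pax6 were kept in all alternatives.

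The study's methods describe 1 GFP-positive and 1 GFP-negative sample from the sort on days 4 and 5, so gates of a day may share organoids. Same-numbered replicates did not deviate together (mean correlation -0.00054 over 28 pairs of groups, with 1 pair of groups above 0.1 throughout). Between the gates of a day the mean correlation was -0.062 on day 4 and 0.027 on day 5. The numbers were therefore not taken as pairs. The replicate block ended the Pax9 call in the GFP-negative samples (Benjamini-Hochberg adjusted p = 0.00101 from limma) and changed no other call of a member. Over all genes, the fit of only the groups compared called 556 in place of 2527 genes from day 0 to day 3 and 119 in place of 211 from day 2. Against day 3 it called 1755 in place of 2245 for the day 4 GFP-positive and 295 in place of 604 for the GFP-negative samples. Between the gates it called 286 in place of 832 on day 4 and 528 in place of 1052 on day 5. From day 4 to day 5 it called 67 in place of 312 in the GFP-positive and 105 in place of 267 in the GFP-negative samples. These were the lowest counts of any alternative. The highest, the looser threshold aside, were 2606, 283, 2405, 699, 946, 1168, 389 and 327 in the same order. The counts of members above stand beside these. The looser threshold called 2059 to 9164 genes, and 231 in place of 23 for the change of the gate difference, which ranged from 8 to 51 under the other alternatives.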
